A study of Mus musculus with 16 samples.

Results

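Synaptic organisers of the neuromuscular junction were taken as 7 mouse genes: Lrp4, Musk, Dok7, Rapsn, Ache, Colq and Etv5. They are 7 of the 18194 genes measured, and 10 of the 45101 probe sets of the array carry their symbols, with 3 for Etv5, 2 for Dok7 and 1 for each of the others. Each gene was read from its brightest probe set, as log2 of the deposited intensity. The study asked what overexpression of Galgt2 does to dystrophic muscle. Galgt2 is another name of B4galnt2, a glycosyltransferase that adds N-acetylgalactosamine to glycans at the muscle surface.

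The samples were 12 arrays of gastrocnemius, the large calf muscle, from male mice aged 2 months, and 4 arrays of C2C12, an established mouse myoblast line. In the first array set, Galgt2 transgenic mdx muscle came from a cross of C57BL/10J and C57BL/6J, Galgt2 transgenic muscle from C57BL/6J, dystrophin-deficient mdx muscle from C57BL/10J and wild-type (WT) muscle from C57BL/6J, with 2 arrays each. In the second set, mdx muscle (C57BL/10J) had received an adeno-associated virus (AAV) carrying Galgt2, and the contralateral mdx muscle had received phosphate-buffered saline (PBS), again with 2 arrays each. In the third set, C2C12 cells stably transfected with Galgt2 and untransfected C2C12 cells were each profiled as differentiated myotubes and as myoblasts, with 1 array each. The labels name neither the promoter of the transgene nor the number of clones of the transfected line. They do not say whether replicates were separate mice or which injected muscles shared a mouse, so the p-values here rest on a spread between arrays that may be technical. Mouse substrain and the mdx mutation cannot be told apart in the comparisons of mdx or transgenic mdx with WT muscle, nor substrain and the transgene in transgenic mdx against mdx muscle, and the same holds for contrasts built from these groups.

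Array medians were 57.7 to 63.9 in the first set, 25.3 to 25.7 in the second and 57.2 to 60.4 in the third, and no level was set against that of another set. Replicate arrays correlated at r = 0.977 to 0.993 across all genes, and the number of arrays limits the precision. Replicate 2 of mdx stood apart, with a log2 level of B4galnt2 of 7.78 against 3.86 in replicate 1, and 4.61 and 4.94 in WT. Its Dmd level of 8.13 was as low as the 8.52 of replicate 1, against 11.14 and 11.16 in WT muscle. Galgt2 transgenic mdx muscle lay between, with Dmd at 9.86 and 9.87. That was higher than in mdx muscle by 1.54 on the log2 scale (SE 0.20, limma, adjusted p = 0.00305). Dmd thus did not match the mdx label there as it did in mdx muscle, and the cause was not tested. Replicate 2 of Galgt2 transgenic mdx muscle had a log2 ratio of 3′ to 5′ Gapdh probe sets of 1.23, against 0.18 to 0.48 in the other arrays of that set. Organiser results that rest on mdx replicate 2 or transgenic mdx replicate 2 are given with and without that array. Values of partner and marker genes are given with all arrays only.

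The neuromuscular junction forms where a motor axon meets the muscle fibre. Agrin released by the nerve binds Lrp4, Lrp4 activates the kinase encoded by Musk, and with the adaptor encoded by Dok7 and the scaffold encoded by Rapsn this signal clusters acetylcholine receptors under the nerve ending. Acetylcholinesterase, anchored in the synaptic cleft by the collagen tail encoded by Colq, ends each signal, and Etv5 is an ETS transcription factor that mouse muscle needs for transcription from synaptic nuclei.

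The 7 genes lie on 5 mouse chromosomes (GRCm38.p6, from the RefSeq gene table). Lrp4 spans chr2:91457456-91513901 and Rapsn chr2:91035472-91045729, with 412 kb between them. Musk lies at chr4:58285729-58377848, Dok7 at chr5:35056571-35087839, Ache at chr5:137288247-137294466, Colq at chr14:31523082-31577863 and Etv5 at chr16:22381313-22439570. RefSeq promoter windows of 300 bases, from 250 before to 50 after a transcription start in that table, were matched by symbol for 4 of the 7 genes, Musk, Dok7, Ache and Etv5, in 6 windows. They were searched on both strands for the E-box CANNTG, a site of myogenic factors such as myogenin, and for the N-box CCGGAA, an ETS factor site known from synaptic promoters. An E-box was found in 4 of 6 windows, 1 for each of the 4 genes, against 72.3% of all 32851 windows. The N-box letters were found in 0 of 6, against 14.9% of all windows. A window's start need not be the 5′ end of the gene span: it lies 233 bases inside the span of Musk, 195 inside that of Dok7 and 7 inside that of Ache, and at the end of that of Etv5, and positions here count from the window's start. The E-boxes of Musk lay 177, 100 and 68 bases before that start, and 3 or more E-boxes were present in 17.6% of all windows. That of Dok7 lay 149 bases before the start of its window, that of Ache 199 bases, and those of Etv5 224 and 207 bases. The 4 windows with an E-box are printed 5′ to 3′ on the gene's strand because these genes are set side by side in the comparisons that follow; capitals mark the E-boxes.

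Musk, chr4:58285712-58286011, plus strand: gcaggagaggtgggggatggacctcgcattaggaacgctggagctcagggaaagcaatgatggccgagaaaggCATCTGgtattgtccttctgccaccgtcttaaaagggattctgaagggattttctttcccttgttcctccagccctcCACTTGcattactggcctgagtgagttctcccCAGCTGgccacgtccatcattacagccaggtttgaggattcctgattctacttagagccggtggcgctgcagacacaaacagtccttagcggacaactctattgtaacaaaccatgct
Dok7, chr5:35056516-35056815, plus strand: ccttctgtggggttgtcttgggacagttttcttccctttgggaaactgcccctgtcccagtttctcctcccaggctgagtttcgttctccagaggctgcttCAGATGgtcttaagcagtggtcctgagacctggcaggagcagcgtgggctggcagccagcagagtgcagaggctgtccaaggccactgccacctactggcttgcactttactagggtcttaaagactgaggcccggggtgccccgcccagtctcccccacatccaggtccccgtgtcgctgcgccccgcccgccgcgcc
Ache, chr5:137288004-137288303, plus strand: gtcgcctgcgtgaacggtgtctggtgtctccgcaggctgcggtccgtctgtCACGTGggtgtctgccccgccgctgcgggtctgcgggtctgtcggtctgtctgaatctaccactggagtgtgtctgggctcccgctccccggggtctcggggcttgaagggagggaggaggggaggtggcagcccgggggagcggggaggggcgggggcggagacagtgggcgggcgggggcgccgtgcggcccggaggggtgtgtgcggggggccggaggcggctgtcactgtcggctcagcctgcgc
Etv5, chr16:22439521-22439820, minus strand: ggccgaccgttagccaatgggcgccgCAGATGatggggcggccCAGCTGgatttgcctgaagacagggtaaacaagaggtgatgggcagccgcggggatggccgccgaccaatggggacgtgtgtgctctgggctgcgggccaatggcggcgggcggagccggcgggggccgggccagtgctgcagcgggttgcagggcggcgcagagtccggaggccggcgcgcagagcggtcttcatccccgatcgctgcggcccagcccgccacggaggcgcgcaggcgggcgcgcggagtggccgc

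Musk was the 1 organiser gene that passed the test in any of the 6 planned comparisons. Its log2 level was 7.63 and 7.08 in Galgt2 transgenic mdx muscle, 7.22 and 7.21 in Galgt2 transgenic muscle, 6.62 and 7.05 in mdx muscle, and 6.32 and 6.19 in WT muscle. All 6 arrays with the transgene, the mdx mutation or both lay above both WT arrays. In transgenic mdx against WT muscle Musk rose by 1.10 ± 0.25 (log2 fold change ± SE), 2.15-fold, with an adjusted p of 0.0268 (limma, Benjamini-Hochberg over all genes). That is 1 of 7 organiser genes called higher, where 4.91% of all genes were called higher and 7.28% in either direction at an adjusted p under 0.05 (21.3% at an unadjusted p under 0.05, also 1 of 7). The call is not firm: its adjusted p was 0.101 and 0.160 without WT replicate 1 and 2 (1.16 and 1.04), and 0.128 without transgenic mdx replicate 1 (0.83). It was 0.0539 in a fit of this array set alone, 0.0635 in a fit of only these 2 groups, and 0.0551 with the replicate number as a block. It held without transgenic mdx replicate 2, the array with the high Gapdh ratio, at 1.38.

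The other 6 organiser genes gave no call in transgenic mdx against WT muscle. Dok7, at 7.71 and 7.74 against 7.45 and 7.09, differed by 0.46 ± 0.29 (adjusted p = 0.419), and Rapsn, at 7.77 and 7.73 against 7.49 and 7.31, by 0.35 ± 0.30 (adjusted p = 0.571). For both genes, and for Musk and Colq, both transgenic mdx arrays lay above both WT arrays, which makes 4 of 7 against 27.8% of all genes. Colq, at 5.28 and 5.56 against 5.15 and 5.01, differed by 0.34 ± 0.31. The probe set of Colq was dim, between percentiles 36.2 and 47.0 of its arrays in this set, and no detection calls were used. Lrp4, the agrin receptor, was level at 9.96 and 9.93 against 9.93 and 10.00 (-0.02 ± 0.21). Ache had 6.28 and 7.28 against 6.80 and 6.49, and Etv5 had 10.10 and 8.75 against 9.74 and 9.30. The transgenic mdx replicates of these last 2 genes lay on either side of both WT arrays.

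**Figure D1:**
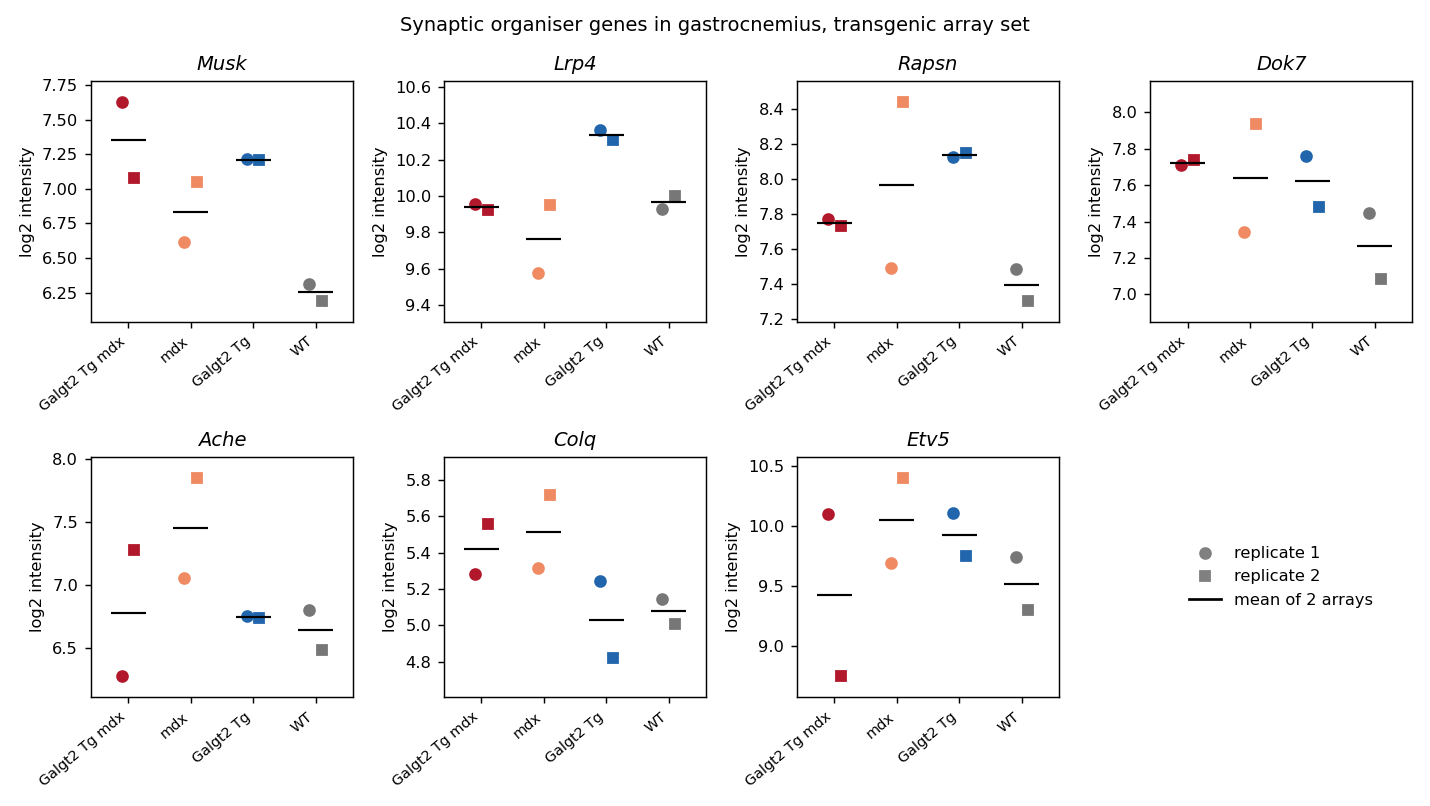
Log2 intensity of the 7 genes (y axis, a separate scale in each panel) in Galgt2 transgenic mdx, mdx, Galgt2 transgenic and WT gastrocnemius (x axis). Points are arrays, circles for replicate 1 and squares for replicate 2, and lines are means of 2 arrays; the WT points of Musk, at 6.32 and 6.19, lie below all others.

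Subunit genes of the acetylcholine receptor, which the organisers cluster, were called in the same muscles. In transgenic mdx against WT muscle 4 of 5 subunit genes rose: Chrnd by 2.80 ± 0.31, Chrna1 by 2.30 ± 0.38, Chrne by 1.16 ± 0.31 and Chrnb1 by 0.97 ± 0.22. Chrne passed narrowly (limma, adjusted p = 0.0476). Its transgenic mdx arrays were at 8.30 and 9.35, the higher in replicate 2, the array with the high Gapdh ratio. The median over the 5 subunits was 1.27 and over the 7 organisers 0.34, against 0.01 for all genes. The difference between both groups of genes was not tested. Genes of new muscle fibres, whose nuclei also transcribe receptor subunits, moved in the same comparison. Of 7 new-fibre markers 6 rose and 1 fell, Actc1, the cardiac actin of embryonic fibres, and their mean log2 level was 9.98 to 10.28 in transgenic mdx muscle and 7.28 to 7.39 in WT muscle. Their summed intensity was 10408 to 11502 in transgenic mdx muscle and 8402 to 8621 in WT muscle, where Actc1 was bright (12.81 and 12.92), and no marker was at 0. Macrophage markers rose in 6 of 10 cases, with sums of 9806 to 10881 in transgenic mdx and 2978 to 4026 in WT muscle. Their part in the levels of the organiser genes was not tested. In whole muscle, fewer cells of a type and less RNA per cell cannot be told apart.

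The transgene was next compared with WT muscle in mice with dystrophin. None of the 7 organisers passed, where 3.15% of all genes were called, and 2 had an unadjusted p under 0.05 (14.2% of all genes). Musk came nearest, at 7.22 and 7.21 in transgenic and 6.32 and 6.19 in WT muscle, a difference of 0.96 ± 0.25 (1.94-fold, adjusted p = 0.0808). Rapsn had 8.13 and 8.15 in transgenic muscle against 7.49 and 7.31, a difference of 0.74 ± 0.30 (adjusted p = 0.286). Both transgenic arrays lay above both WT arrays for Musk, Rapsn, Lrp4, Dok7 and Etv5, 5 of 7 genes against 20.5% of all genes. Lrp4 was at 10.36 and 10.31 in transgenic muscle against 9.93 and 10.00 (0.37 ± 0.21), and these were its highest levels in the set. Dok7 was at 7.76 and 7.48 against 7.45 and 7.09 (0.35 ± 0.29), and Etv5 at 10.10 and 9.75 against 9.74 and 9.30 (0.41 ± 0.52). The enzyme and its anchor stayed near WT: Ache had 6.75 and 6.74 against 6.80 and 6.49, and Colq 5.25 and 4.82 against 5.15 and 5.01. Their fold changes were 0.10 ± 0.35 and -0.05 ± 0.31, and the arrays of both groups overlapped.

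Partners of the pathway were largely without calls in that comparison. Of 22 measured agrin to MuSK pathway partners 0 rose and 1 fell, Sorbs2, a cytoskeletal adaptor, by 1.04 on the log2 scale (SE 0.21). Of 13 neuregulin receptors and ETS factors none passed in any comparison, and Erbb2, a receptor kinase for neuregulin, had the smallest p here at 0.72 ± 0.26 (adjusted p = 0.218). Chrnd and Chrna1 rose by 2.96 ± 0.31 and 2.29 ± 0.38, 2 of 5 receptor subunits. Among 14 genes known to respond to denervation of muscle, 4 rose and 1 fell. Most of the list is induced by denervation, while Dach2 and Hdac9 are known to fall. The transcription factor Sox11 rose by 4.93 ± 0.37, the embryonic myosin light chain Myl4 by 2.93 ± 0.37 and the cell cycle inhibitor Cdkn1a by 2.80 ± 0.30, while Dach2, which represses myogenin in mouse muscle, fell by 3.15 on the log2 scale (SE 0.41). New-fibre markers again moved, 6 of 7 higher and 1 lower, with mean log2 levels of 9.61 to 10.20 in transgenic and 7.28 to 7.39 in WT muscle and sums of 8842 to 12360 in transgenic and 8402 to 8621 in WT muscle. Macrophage markers rose in 2 of 10 cases (sums of 5898 to 10544 in transgenic and 2978 to 4026 in WT muscle). Satellite cell and myoblast markers rose in 1 of 6 (7980 to 8463 in transgenic and 5043 to 5471 in WT muscle). Skin epithelium markers rose in 2 of 7, Dsp and Trp63 (3452 to 4154 in transgenic and 1275 to 1380 in WT muscle). No keratin gene of that list was called, and the median log2 fold change of the list was -0.05. Endothelial markers gave 0 calls of 6, with sums of 2661 to 2683 in transgenic and 4307 to 4737 in WT muscle. Their part in the levels of the organisers was not tested.

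In mdx against WT muscle no organiser passed, where 5.44% of all genes were called. The median log2 fold change of the 7 was 0.53, against 0.01 for all genes, and 2 of 7 had an unadjusted p under 0.05 (20.4% of all genes). Ache, the acetylcholine-degrading enzyme, had 7.05 and 7.85 in mdx muscle against 6.80 and 6.49 in WT muscle, a difference of 0.81 ± 0.35 (adjusted p = 0.234). Musk, at 6.62 and 7.05 against 6.32 and 6.19, differed by 0.58 ± 0.25 (adjusted p = 0.228). Both mdx arrays lay above both WT arrays for Musk, Rapsn, Ache and Colq, 4 of 7 against 23.7% of all genes. Rapsn had 7.49 and 8.44 against 7.49 and 7.31 (0.57 ± 0.30), and replicate 1 exceeded the higher WT array by less than the second decimal. Dok7 had 7.34 and 7.94 against 7.45 and 7.09, Colq 5.32 and 5.71 against 5.15 and 5.01, and Etv5 9.69 and 10.40 against 9.74 and 9.30. Replicate 1 of Dok7 and Etv5 lay between both WT arrays, and replicate 2 above them. Lrp4 was the exception in sign, at 9.58 and 9.95 against 9.93 and 10.00 (-0.20 ± 0.21).

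Much of that shift lay in the mdx array that carries B4galnt2 signal. Replicate 2 of mdx was above replicate 1 in 7 of 7 organisers, by a median of 0.59 on the log2 scale, while 58.4% of all genes were above, by a median of 0.10. It was the highest of the 8 arrays of its set for Rapsn, Dok7, Ache, Colq and Etv5. Without it the median fold change of the organisers against WT was 0.17, with Rapsn at 0.09, Dok7 at 0.08, Ache at 0.41, Musk at 0.36 and Etv5 at 0.17, and 0 called. Without replicate 1 instead, Rapsn passed at 1.04 ± 0.27 (adjusted p = 0.0485) and the median was 0.80. The mdx difference of Rapsn and Dok7 thus rests on that array. Why it has B4galnt2 signal was not tested.

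**Figure D2:**
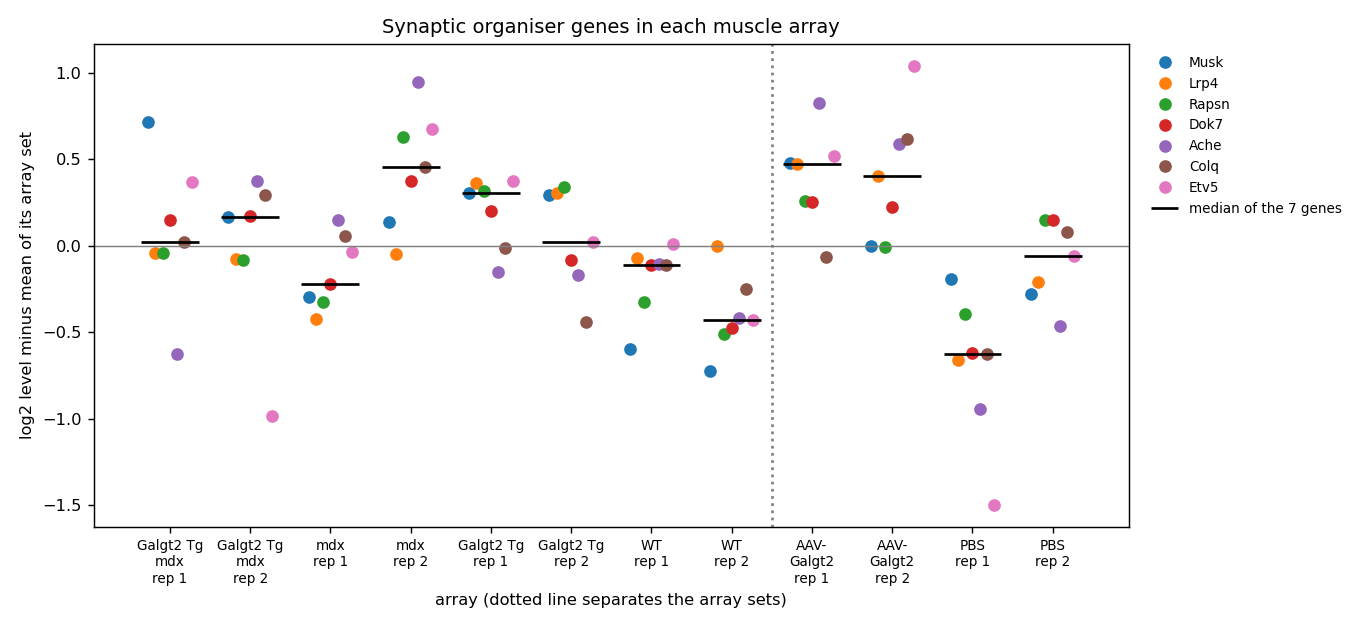
Deviation of each gene's log2 level from its mean over the arrays of its set (y axis) in the 12 muscle arrays (x axis), 1 coloured point per gene and a line at the median of the 7. The medians are 0.45 in mdx replicate 2 and -0.22 in mdx replicate 1, -0.11 and -0.43 in WT, and -0.63 in PBS replicate 1.

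Partners moved in both directions in mdx against WT muscle. Cdk5r1, the activator of the kinase Cdk5, rose by 1.16 ± 0.29 and Sorbs2 fell by 0.89 on the log2 scale (SE 0.21), 2 of 22 agrin to MuSK partners, with a median of 0.00 over the list. Chrna1 and the embryonic subunit gene Chrng rose by 2.17 ± 0.38 and 1.79 ± 0.34. None of 13 genes of the synaptic basal lamina and cholinesterase partners passed; Sntb2, a syntrophin, had the smallest p (0.89 ± 0.25, adjusted p = 0.0687). Of the denervation-responsive genes 5 of 14 rose and 1 fell, with Myl4 at 3.11 ± 0.37, Sox11 at 3.06 ± 0.37, Ankrd1, a stretch-responsive repeat protein, at 2.78 ± 0.58 and Dach2 at -2.98 ± 0.41. New-fibre markers rose in 6 of 7 cases, with summed intensities of 16399 to 16611 in mdx and 8402 to 8621 in WT muscle, and macrophage markers in 8 of 10, at 23286 to 27782 in mdx and 2978 to 4026 in WT muscle. Schwann cell markers gave no call in 7 measured of 10. Their sums were 12092 to 13576 in mdx and 12303 to 13514 in WT muscle. The part of these cell types in the organiser levels was not tested.

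In transgenic mdx against mdx muscle no organiser passed, where 6.08% of all genes were called. None had an unadjusted p under 0.05 (21.1% of all genes), and their median log2 fold change was -0.10 against -0.01 for all genes. Musk, at 7.63 and 7.08 against 6.62 and 7.05 in mdx muscle, differed by 0.52 ± 0.25 (adjusted p = 0.274), and it was the 1 organiser whose arrays did not overlap (21.8% of all genes did not overlap upward). Ache, at 6.28 and 7.28 against 7.05 and 7.85, differed by -0.67 ± 0.35 (adjusted p = 0.323). Etv5, at 10.10 and 8.75 against 9.69 and 10.40, differed by -0.63 ± 0.52. Both transgenic mdx replicates of these 2 genes lay more than 1 log2 unit apart, in opposite directions. Lrp4 differed by 0.18 ± 0.21, Dok7 by 0.08 ± 0.29, Colq by -0.10 ± 0.31 and Rapsn by -0.22 ± 0.30. The second, dim probe set of Dok7 gave 0.50 ± 0.18 here (limma, adjusted p = 0.157 over all probe sets).

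Single arrays set the sign of several of these values. Without mdx replicate 2 the organiser median was 0.26, Rapsn turned to 0.26 and Colq to 0.10, while Musk was 0.74 and Ache -0.27. Without transgenic mdx replicate 2 Etv5 turned to 0.05 and Ache was -1.17. None of the 7 passed under either. Bche, the second cholinesterase of muscle, rose by 2.12 ± 0.39 in transgenic mdx against mdx muscle, Sntb1, a syntrophin, by 0.97 ± 0.23, and Lama4, a synaptic laminin chain, fell by 1.08 on the log2 scale (SE 0.22). These are 3 of 13 basal lamina and cholinesterase partners. Syne1, which anchors nuclei under the synapse, rose by 1.03 ± 0.21, 1 of 22 agrin to MuSK partners, and Chrnd by 2.08 ± 0.31, 1 of 5 receptor subunits. Of 7 skin epithelium markers 3 rose, Dsp, Perp and Trp63, while the keratin genes Krt5, Krt14, Krt10 and Krt1 gave no call. The summed intensities of the 7 were 2929 to 5224 in transgenic mdx and 626 to 699 in mdx muscle. Macrophage markers fell in 4 of 10 cases, with sums of 9806 to 10881 in transgenic mdx and 23286 to 27782 in mdx muscle. Endothelial markers summed to 2136 to 2232 in transgenic mdx and 3786 to 4033 in mdx muscle, with 1 of 6 lower. Their part in the levels of the synaptic genes was not tested.

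The interaction of transgene and mdx asks whether the transgene effect differs between mdx muscle and muscle with dystrophin. Read from their brightest probe sets, all 7 organisers were below 0, where 54.2% of all genes were above 0. Their median was -0.44 against 0.05 for all genes. None passed, where 0.044% of all genes were called, and 1 had an unadjusted p under 0.05 (11.9% of all genes). Rapsn had -0.96 ± 0.43 (adjusted p = 0.412), Etv5 -1.03 ± 0.73, Ache -0.77 ± 0.50, Musk -0.44 ± 0.36, Dok7 -0.27 ± 0.41, Lrp4 -0.19 ± 0.30 and Colq -0.05 ± 0.44. Colq turned to 0.04 once the array medians were made equal. The interaction contains the mdx and WT arrays with signs opposite to those in mdx against WT, and without mdx replicate 2 its median was -0.22, with Dok7 and Colq above 0.

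AAV-Galgt2 given to mdx muscle after birth was compared with PBS in the contralateral muscle. All 7 organisers were higher in AAV-Galgt2 muscle by fold change, where 54.3% of all genes were, with a median of 0.55 against 0.03 for all genes. No organiser and no other gene passed (0% of all genes, limma, adjusted p under 0.05). B4galnt2, the gene supplied, did not pass either. It was at 10.54 and 10.56 in AAV-Galgt2 muscle against 5.27 and 4.26 in PBS muscle (5.78 ± 0.91, limma, adjusted p = 0.233). The absence of calls therefore does not show an absence of change. At an unadjusted p under 0.05, 3 of 7 organisers and 1506 of all genes, 8.28%, passed. These were Ache, Lrp4 and Etv5. In Ache, Lrp4, Etv5, Musk and Dok7 both AAV-Galgt2 arrays lay above both PBS arrays, 5 of 7 genes against 25.3% of all genes.

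Ache had 6.00 and 5.76 in AAV-Galgt2 muscle against 4.23 and 4.72 in PBS muscle. The PBS values were low, at percentiles 44.0 and 50.5 of their arrays, and no detection calls were used. The gap between the groups was wider than the spread within either, and the difference was 1.41 ± 0.35 (2.65-fold, adjusted p = 0.361). Lrp4 had 9.61 and 9.54 against 8.48 and 8.93, a difference of 0.87 ± 0.21 (1.83-fold, adjusted p = 0.361). The AAV-Galgt2 arrays of Lrp4 lay close together, and the PBS arrays differed more. Ranked by p, Lrp4 was 99 and Ache 119 of 18194 genes. Etv5 had 8.04 and 8.56 against 6.02 and 7.46, a difference of 1.56 ± 0.52 (2.95-fold, adjusted p = 0.465). The PBS replicates of Etv5 were further apart than those of any other organiser in this set.

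Values of the kinase and its adaptors lay closer together. Musk had 5.39 and 4.91 in AAV-Galgt2 against 4.72 and 4.64 in PBS muscle (0.47 ± 0.25, adjusted p = 0.666). Dok7 had 6.01 and 5.98 against 5.14 and 5.90 (0.48 ± 0.29), so that the AAV-Galgt2 arrays were barely above PBS replicate 2. Rapsn had 5.74 and 5.48 against 5.09 and 5.64 (0.25 ± 0.30), and Colq 4.38 and 5.06 against 3.82 and 4.53 (0.55 ± 0.31). The arrays of Rapsn and Colq overlapped between the groups.

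**Figure D3:**
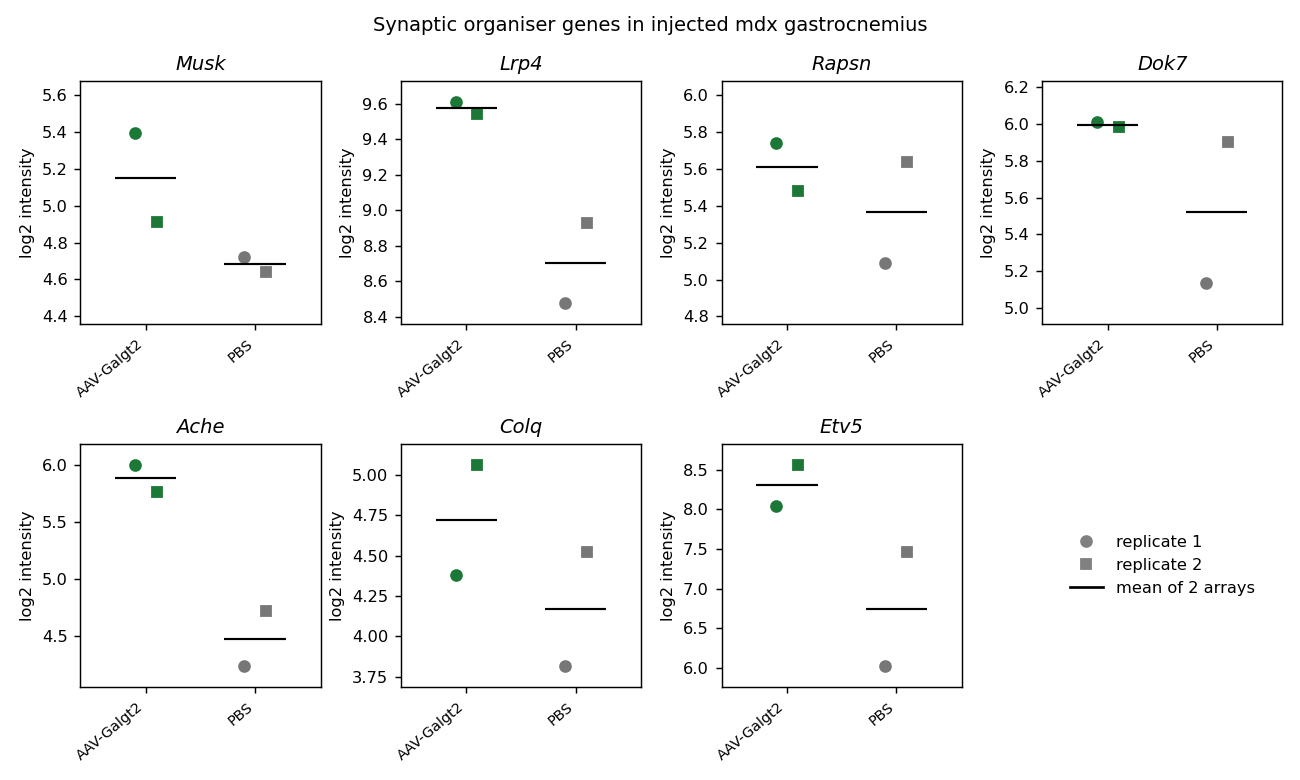
Log2 intensity of the 7 genes (y axis, a separate scale in each panel) in mdx gastrocnemius given AAV-Galgt2 or PBS (x axis). Circles are replicate 1, squares replicate 2 and lines means of 2 arrays; for Ache, 6.00 and 5.76 in AAV-Galgt2 muscle stand above 4.23 and 4.72 in PBS muscle, and Rapsn overlaps.

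PBS replicate 1 was the lowest array of its set for 6 of the 7 organisers, all but Musk. PBS replicate 2 was above it in 6 of 7, by a median of 0.55, where 51.3% of all genes were above. Without PBS replicate 1 the fold changes were 1.17 for Ache, 0.84 for Etv5, 0.65 for Lrp4, 0.51 for Musk, 0.19 for Colq, 0.09 for Dok7 and -0.03 for Rapsn, so 6 of 7 stayed above 0. Without PBS replicate 2 they were larger for all but Musk (0.43), with Etv5 at 2.28 (adjusted p = 0.0942), Ache at 1.65 (adjusted p = 0.129) and Lrp4 at 1.10 (adjusted p = 0.0746). No organiser passed with any of these 4 arrays left out.

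Partners in AAV-Galgt2 against PBS muscle had 0 of 22 calls among agrin to MuSK partners, with 19 of 22 above 0. Agrn, the gene of agrin itself, had 8.58 and 8.76 in AAV-Galgt2 muscle against 7.46 and 7.70 in PBS muscle, a difference of 1.09 ± 0.20 (adjusted p = 0.233). Hspg2, the gene of perlecan, which holds the Colq tail in the basal lamina, differed by 1.40 ± 0.21 (adjusted p = 0.233), and 12 of 13 basal lamina and cholinesterase partners were above 0. Erbb3, a neuregulin receptor, differed by 1.17 ± 0.30 (adjusted p = 0.370). All 5 receptor subunits were above 0, with Chrnb1 at 0.70 ± 0.22 (adjusted p = 0.461). Schwann cell markers summed to 6454 to 6542 in AAV-Galgt2 and 5199 to 5247 in PBS muscle, with 5 of 7 above 0. New-fibre markers summed to 7574 to 8804 in AAV-Galgt2 and 5141 to 6814 in PBS muscle, and mature fast fibre markers to 73197 to 73208 in AAV-Galgt2 and 67183 to 68313 in PBS muscle. Satellite cell and myoblast markers summed to 3305 to 3673 in AAV-Galgt2 and 2500 to 3017 in PBS muscle, and endothelial markers to 1633 to 1839 in AAV-Galgt2 and 1393 to 1548 in PBS muscle, with 0 calls in each list. PBS replicate 1, the low array for the organisers, also had the lower sum of macrophage markers (5955, against 11003 in PBS replicate 2) and of denervation-responsive genes (8218, against 14183). No marker was at 0, and the part of these cell types in the organiser levels was not tested.

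With all arrays, the fold changes of Ache and Etv5 had opposite signs under AAV-Galgt2 and under the transgene in mdx muscle, and neither passed in either. Against its own mdx control, Ache differed by 1.41 ± 0.35 under AAV-Galgt2 and by -0.67 ± 0.35 under the transgene, and Etv5 by 1.56 ± 0.52 and -0.63 ± 0.52. The transgene values rest on single arrays: without mdx replicate 2 both genes were at -0.27, and without transgenic mdx replicate 2 Ache was at -1.17 and Etv5 at 0.048. The difference of both effects, a comparison added after the values were seen, was 2.08 ± 0.50 for Ache (adjusted p = 0.0608), 2.19 ± 0.73 for Etv5 (adjusted p = 0.132) and 0.70 ± 0.30 for Lrp4 (adjusted p = 0.225). None of the 7 passed, where 2.09% of all genes did, and these 3 had an unadjusted p under 0.05 (20.5% of all genes). Ache passed without mdx replicate 1 (2.48, adjusted p = 0.0268), without transgenic mdx replicate 2 (2.58, adjusted p = 0.0451) and without PBS replicate 2 (2.32, adjusted p = 0.0456), and Etv5 without PBS replicate 2 (2.90, adjusted p = 0.0419). Without mdx replicate 2, the array with B4galnt2 signal, Ache was at 1.68 (adjusted p = 0.137) and Etv5 at 1.83 (adjusted p = 0.271). Musk gave close values under AAV-Galgt2 and under the transgene (0.47 and 0.52), with a difference of -0.05 ± 0.36. Among partners the effect under AAV-Galgt2 was the higher in Agrn (1.46 ± 0.28), Hspg2 (2.01 ± 0.30) and Lama4 (1.57 ± 0.31) and the lower in Bche (-2.55 ± 0.55), all 4 past the threshold. The array sets differ in overall level and in how Galgt2 was supplied, and these cannot be told apart.

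**Figure D4:**
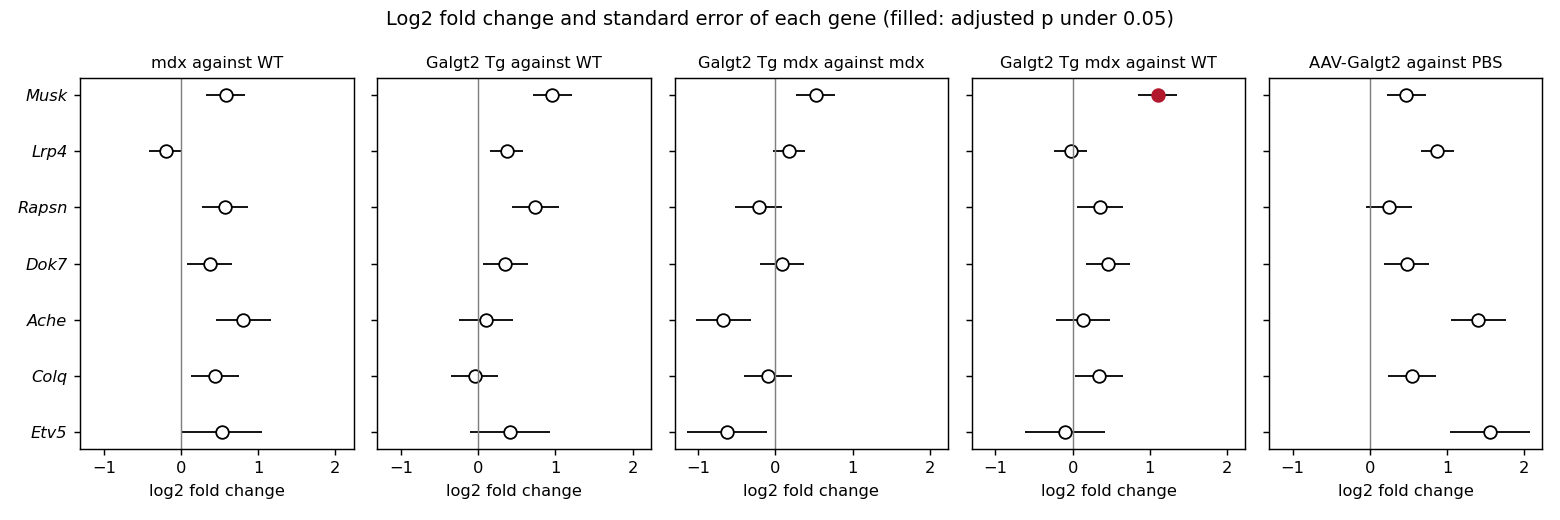
Log2 fold change (x axis) of each gene (rows) in 5 comparisons, 1 per panel, with bars of 1 standard error from the fit of 12 arrays. Filled points passed an adjusted p under 0.05, and only Musk in Galgt2 transgenic mdx against WT (1.10) did; in AAV-Galgt2 against PBS all 7 points lie right of 0.

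Genes with more than 1 probe set showed how far a value depends on it. For Etv5, the second probe set gave 1.30 ± 0.36 in AAV-Galgt2 against PBS muscle (adjusted p = 0.602 over all probe sets), close to the 1.56 of the brightest, and the third, a dim one, gave 0.24 ± 0.21. In transgenic mdx against mdx muscle the same 3 gave -0.75 ± 0.36, -0.63 ± 0.52 and 0.30 ± 0.21. The second probe set of Dok7, also dim, gave -0.14 ± 0.18 under AAV-Galgt2 where the brighter had 0.48. Under AAV-Galgt2 the dim probe set of Etv5 thus had the sign of the brighter ones and a smaller value, and that of Dok7 had the other sign. In the interaction the dim probe sets gave 0.25 ± 0.26 for Dok7 and 0.09 ± 0.30 for Etv5. The brightest had -0.27 and -1.03 there, and the second of Etv5 -1.23. In the added comparison the dim probe sets gave -0.65 ± 0.26 for Dok7 and -0.06 ± 0.30 for Etv5, against 0.39 and 2.19. That of Dok7 gave -0.14 in mdx against WT muscle, against 0.37, and that of Etv5 0.59 in transgenic mdx against WT, against -0.10. In transgenic against WT muscle all of them were above 0.

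Across the 12 muscle arrays, each centred on the mean of its array set, the organisers varied together to different degrees. All 21 pairs had a Pearson r above 0, with a median of 0.58. The highest was 0.79 for the scaffold Rapsn and the adaptor Dok7, and the lowest was 0.18 for Musk and Colq. Each r is over 12 arrays that share array, set and group, and it is a description. The genes of most similar pattern were searched among the 9097 genes brighter than the median gene. For Musk they were Hspb7 (0.98), a small heat shock protein of muscle, Rab15 (0.91) and Klhl30 (0.91). For Lrp4 they were Tmem8b (0.95), Akap1 (0.87) and Nav2 (0.87), for Rapsn Mri1 (0.89), Cdipt (0.88) and Dhdds (0.88), and for Dok7 Vps26b (0.97), P3h1 (0.96) and Arhgap39 (0.95). For Ache they were Cd248 (0.97), Ufsp1 (0.96) and Tpbgl (0.96), for Colq Glis2 (0.94), Myh9 (0.93) and Ppp4r1 (0.92), and for Etv5 Lrrc47 (0.98), Usp22 (0.98) and Zmiz1 (0.98). Ufsp1, at chr5:137294669-137295664, begins 202 bases beyond the end of Ache.

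In C2C12 cells the organisers were read from 1 array per condition, so no test was made. The labels were first set against differentiation genes. In the untransfected cells the array labelled myotube was below the array labelled myoblast in Ckm (6.32 against 8.09), Myh3 (11.48 against 12.46) and Myog (12.76 against 13.25), genes that rise as myoblasts differentiate, so it goes against its label. In the transfected cells the array labelled myotube was above the array labelled myoblast in all 3. B4galnt2 was at 10.82 and 9.76 in the transfected arrays labelled myotube and myoblast, and at 4.81 and 4.58 in the untransfected arrays labelled the same way.

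Musk was at 9.32 and 9.39 in the transfected arrays labelled myotube and myoblast, and at 7.59 and 9.18 in the untransfected ones. The untransfected array labelled myotube stood alone, 1.59 below its counterpart labelled myoblast and 1.73 below the transfected array labelled myotube. Read from the brightest probe sets, Musk was the 1 organiser at least 2-fold apart in each of these pairs. Of all genes, 4.27% were 2-fold lower in the first and 4.51% were 2-fold higher in the transfected array of the second. Etv5 was at 8.24 and 7.43 in the transfected and at 8.89 and 9.44 in the untransfected arrays labelled myotube and myoblast. Its difference of -2.01 between the arrays labelled myoblast, transfected against untransfected, was the 1 organiser difference past 2-fold there, where 3.56% of all genes were 2-fold lower. Chrna1, the receptor subunit, had 12.95 and 12.91 in the transfected and 12.40 and 12.94 in the untransfected arrays.

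From their brightest probe sets, the other organisers stayed within 2-fold in all 4 pairs. The second probe set of Dok7 did not, at 7.15 and 4.85 in the untransfected arrays labelled myoblast and myotube. In the transfected arrays labelled the same way it was at 6.45 and 5.96. Lrp4 ranged from 12.39 to 12.98, and its probe set was between percentiles 98.0 and 99.5 of these arrays. Rapsn was at 8.52 and 9.42 in the transfected arrays labelled myotube and myoblast and at 8.05 and 8.66 in the untransfected ones, and Dok7 at 7.75 and 8.39, and at 7.32 and 8.26. For both adaptors the array labelled myotube was the lower in each line. Ache ranged from 4.43 to 5.17 and Colq from 4.91 to 5.81. Both were dim, at percentiles 26.0 to 40.9 and 35.8 to 48.7 of these arrays. All 7 organisers were lower in the untransfected array labelled myotube than in that labelled myoblast, with a median difference of -0.60 against 0.02 for all genes. In the transfected pair no organiser was 2-fold apart (3.35% of all genes were higher and 2.24% lower by that size), and 5 of 7 were lower, with a median of -0.19 against -0.09. Since the label of the untransfected array is in doubt, no direction of differentiation can be read from that pair. Transfected and untransfected arrays were paired by the same labels, so differentiation state and Galgt2 cannot be told apart in those pairs. Musk was at 9.32 in the transfected array labelled myotube and at 9.18 in the untransfected array labelled myoblast. Etv5 was at 7.43 in the transfected array labelled myoblast and at 8.89 in the untransfected array labelled myotube.

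**Figure D5:**
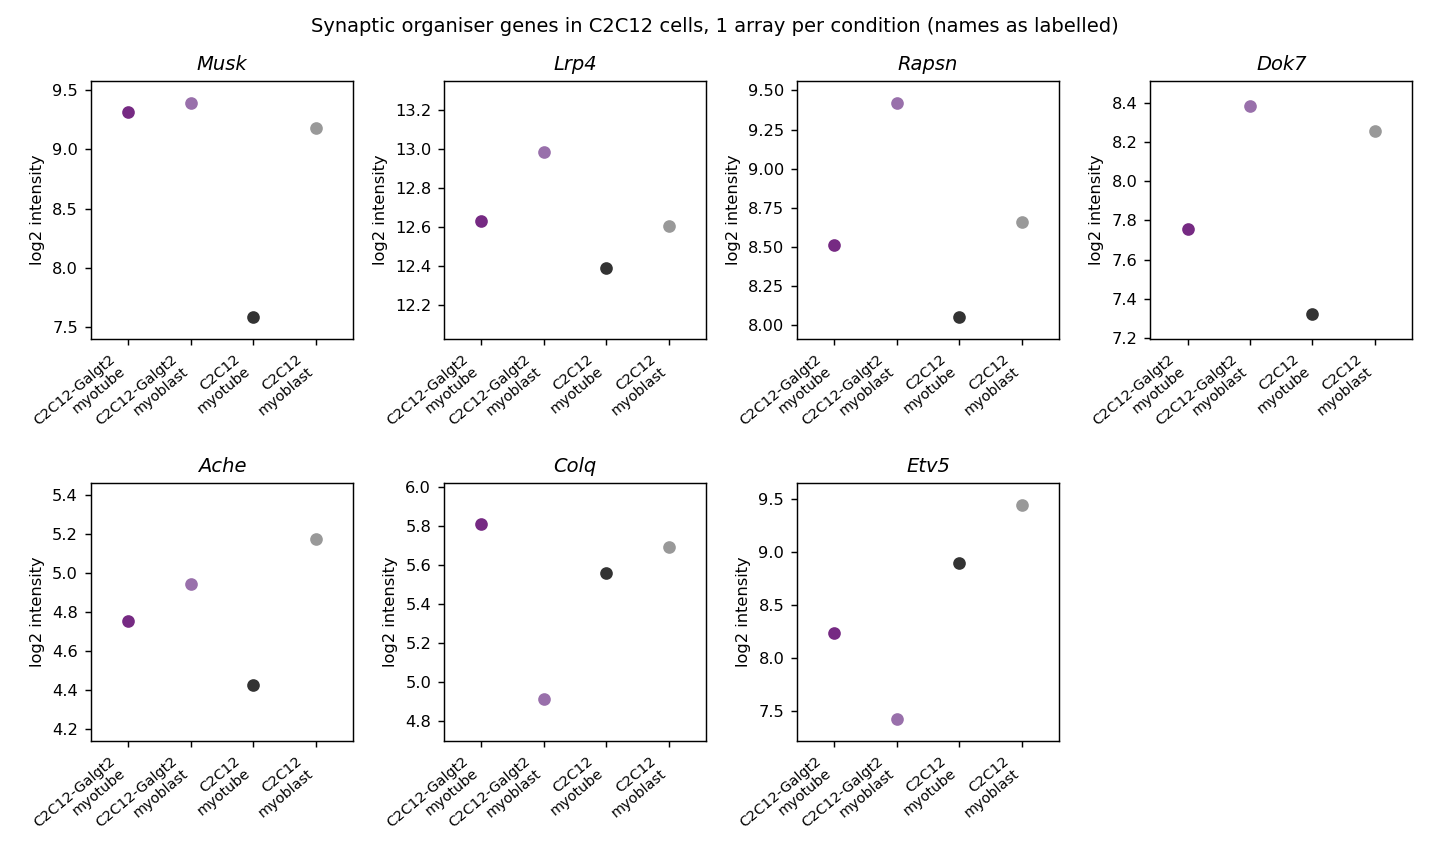
Log2 intensity of the 7 genes (y axis, a separate scale in each panel) in C2C12-Galgt2 and untransfected C2C12 arrays, named as labelled (x axis), 1 array per condition and no error. Musk is at 7.59 in the untransfected array labelled myotube and between 9.18 and 9.39 in the others.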

How the data were processed

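RNA of 16 samples was hybridised to 1-colour expression arrays. Muscle samples started from 25 ng of total RNA, amplified first, per the labels. The authors deposited 1 intensity per probe set, made with GCOS and RMA per the submitters' processing notes, with no versions given. The deposited values are linear and were taken to log2 here. Of 45101 probe sets, 34958 carry 1 gene symbol, 932 several and 9211 no listed gene, and the last 2 kinds were left out. Each of 18194 genes was read from its brightest probe set, by mean log2 level in the muscle arrays for muscle and in the cell line arrays for C2C12. A single limma model held the 12 muscle arrays (version 3.58.1, R 4.3.3), with a mean for each of 6 groups and moderated variances (eBayes). Two-sided p-values were adjusted after Benjamini and Hochberg across the 18194 genes of each comparison (Benjamini-Hochberg), with 0.05 as the threshold. The script was tested on simulated data. The 6 planned comparisons stay within an array set, and 1 was added after the values were seen. The cell line arrays were compared by differences of at least 2-fold. Arrays have no read depth.

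The members and the gene lists were chosen with earlier results of these data known. Named from each other list were all called genes where 4 or fewer passed, otherwise the 4 of largest change, or the 1 gene of smallest p where none passed, and for likeness the 3 genes of highest r. B4galnt2, Dmd, Ckm, Myh3, Myog and Chrna1 served as checks of labels. Agrn, Hspg2, Lama4 and Bche beside the added comparison follow the same rule. Alternatives were 2 other scalings, fits on fewer groups, the replicate number as a block, other probe set choices, a trend in the variance, a filter on dim genes, an offset of 16 and leaving out each array. No detection calls, scanner files or dates were used.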

Additional observations from a re-analysis of the deposited data

How the results depend on the processing

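Of 49 fold changes of organiser genes in 7 comparisons, under up to 10 settings that kept all arrays, 451 of 455 values held their direction and their side of the threshold. The exceptions were Colq in the interaction, which turned to 0.040 with arrays shifted to the same median, and 3 values of Musk in transgenic mdx against WT muscle. Sign changes between single probe sets of Dok7 and of Etv5, given above, are not in that count. Much of the agreement was fixed by the design. Fits on fewer groups, the replicate block and the variance trend leave a fold change as it is, and Musk stayed at 1.10 in its 3 values. The choice of probe set cannot move the fold change of a gene with 1 probe set. Only Musk in transgenic mdx against WT was called to begin with. The count of organisers called in transgenic mdx against WT was 0 in a fit within the array set, 0 in a fit on the groups compared and 0 with the replicate block, where the adjusted p of Musk was 0.0551. Same-numbered replicates deviated together at r from -0.44 to 0.54, so a pairing by number was not shown, and the labels do not settle it. The replicate block changed no other call of an organiser. In fits of the injected muscles alone, same and crossed pairing both called 0 genes. The main fit without pairing also called 0 there, so these counts cannot decide whether a pairing matters. Leaving out each array gave 0 to 1 organisers called in mdx against WT, 0 to 1 in transgenic mdx against WT, 0 in the other planned comparisons and 0 to 2 in the added one.

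With an array left out, signs turned within these ranges. In transgenic against WT muscle Ache went over -0.054 to 0.26 and Colq over -0.26 to 0.17. In transgenic mdx against mdx muscle the ranges were -0.010 to 0.36 for Lrp4, -0.69 to 0.26 for Rapsn, -0.21 to 0.38 for Dok7, -0.29 to 0.10 for Colq and -1.30 to 0.048 for Etv5. In transgenic mdx against WT muscle they were -0.059 to 0.011 for Lrp4, -0.37 to 0.64 for Ache and -0.77 to 0.58 for Etv5. In the interaction they were -0.57 to 0.026 for Dok7 and -0.26 to 0.16 for Colq, in AAV-Galgt2 against PBS muscle -0.025 to 0.52 for Rapsn, and in the added comparison -0.32 to 0.22 for Musk and -0.013 to 0.94 for Rapsn. None of these values passed, and the cause was not tested.

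Over all genes, mdx against WT called 990 (132 to 1338 with an array left out, 436 to 1511 otherwise), and the 68.9% of its calls that were higher became 55.9% with arrays shifted to the same median. Transgenic against WT called 573 (184 to 653, and 256 to 836), transgenic mdx against mdx 1107 (311 to 1290, and 139 to 1788), transgenic mdx against WT 1324 (434 to 1575, and 842 to 2213), the interaction 8 (0 to 142, and 0 to 20), AAV-Galgt2 against PBS 0 (0 to 158, and 0 to 0) and the added comparison 380 (41 to 1074, and 123 to 461). The fit on the groups compared could not be run for the interaction or the added comparison, and a fit within the array set could not be run for the added one. With 2 arrays per group, and single arrays in the cell lines, small differences between groups are not detectable. In AAV-Galgt2 against PBS muscle the 55.0-fold difference of B4galnt2 was not called either.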
